A study of Homo sapiens with 18 samples.

Results

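A set of 10 genes of the cyclic AMP (cAMP) and CREB pathway was followed in THP-1, a cell line from a human monocytic leukaemia. They were taken by symbol from the 57500 genes in the deposited count tables, and 10 of 10 were found. They comprise the adenosine receptors ADORA2A and ADORA2B, the phosphodiesterases PDE4A, PDE4B and PDE4D, the transcription factors CREB1, CREM and CREB5, and the CREB coactivators CRTC2 and CRTC3. The cells were stable lines transduced with lentivirus carrying a non-target short hairpin RNA (shNT) or a hairpin against NR4A2 (shNR4A2) or NR4A3 (shNR4A3). All lines were grown in puromycin and moved to buffered DMEM with serum 2 h before stimulation. Within each line, cells received no LPS (control) or LPS, the bacterial cell wall product that triggers Toll-like receptor 4, at 2.5 μg/ml for 2 h. This gave 6 groups of 3 libraries, 18 in all, described by the study as independent experiments. The sources used here describe only 1 line per target, so an effect of the hairpin cannot be told apart from a difference between lines. Total counts per library ran from 16171161 to 23929138, with a median of 19639071.

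Cyclic AMP is made by adenylyl cyclases when receptors coupled to the stimulatory G protein, among them those encoded by ADORA2A and ADORA2B, bind their ligand. It activates protein kinase A, which phosphorylates CREB family factors. These factors bind the cAMP response element and, together with coactivators such as the CRTC proteins, switch on target genes. PDE4 enzymes break cAMP down and so limit the signal. In monocytes and macrophages the pathway is known to restrain the production of inflammatory cytokines, and the NR4A nuclear receptor genes are classical CREB targets.

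The cAMP response element has the letters TGACGTCA, and its core is TGACG. The NBRE, to which NR4A receptors bind as monomers, was searched as AAAGGTCA and a kappaB site as its common decamer, all on both strands. The windows searched were RefSeq promoters on GRCh38.p14, each from 250 bases before to 50 after an annotated start. They numbered 32 for 8 of the 10 genes, since ADORA2A and CRTC2 were not in the table. TGACGTCA was in 3 of the 32 windows, of which 2 were overlapping CREM windows that hold the same site, and in 1.85% of all 35116 windows. TGACG, which also lies within TGACGTCA, was in 7 of the 32 windows and in 24.6% of all windows. AAAGGTCA was in 1 of the 32 and in 1.22% of all windows. The kappaB decamer was in 0 of the 32 and in 0.191% of all windows. A match is a description of letters, not evidence of binding. Shown here are the 2 full elements and the core in the promoter of ADORA2B, a receptor that differed between the lines. The NBRE letters upstream of CREB5, the CREB family gene with the largest LPS response, are also shown. The matched letters are in capitals, 5′ to 3′ on the strand of the gene.
CREM, chr10:35195841-35195870, plus strand: gagctgcacatTGACGTCAgctccgagtca
PDE4A, chr19:10416759-10416788, plus strand: cgtcagtccgcTGACGTCAcgccccaggag
ADORA2B, chr17:15944892-15944921, plus strand: cgagctcgagcgTGACGggaagttggggca
CREB5, chr7:28435365-28435394, plus strand, with the NBRE letters read on the minus strand: TGACCTTTtcccttccattttttttttttt
The ADORA2B core lies 226 bases before the annotated start and the CREB5 match 250 bases before it. The PDE4A window was the richest in core matches, with 7 over both strands, whereas the PDE4B windows held neither the core nor the full element.

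The hairpins were checked first. In shNT control cells NR4A2 had 4.16, 2.83 and 4.08 TPM (a level scaled by gene length and by the sum of each library), and in shNR4A2 control cells 1.82, 1.63 and 2.41 TPM. With LPS the levels of NR4A2 were 62.2, 74.7 and 51.3 TPM in shNT and 20.5, 28.3 and 14.8 TPM in shNR4A2. The groups did not overlap in either state. NR4A2 fell by 0.91 on the log2 scale without LPS (SE 0.23, adjusted p = 0.0359) and fell by 1.52 with LPS (SE 0.19, adjusted p = 0.00265). All adjusted p-values come from edgeR's quasi-likelihood test with Benjamini-Hochberg adjustment over all genes tested, and a gene was called at a value under 0.05. The call without LPS was lost when any of 4 libraries was left out, shNT control replicate 1 (adjusted p = 0.124) or 3 (0.114) or shNR4A2 control replicate 1 (0.0966) or 2 (0.0728).
In shNR4A3 cells NR4A3 had 0.158, 0.107 and 0.0315 TPM without LPS, from 5, 3 and 1 counts, against 0.556, 0.693 and 0.512 TPM in shNT. With LPS it had 17.0, 18.2 and 16.7 TPM against 30.9, 32.3 and 31.9 TPM. NR4A3 fell by 2.47 without LPS (SE 0.49, adjusted p = 0.00767) and by 0.82 with LPS (SE 0.08, adjusted p = 0.000556). Without LPS it passed the filter on low counts only through its shNT libraries. NR4A1 was not called in any comparison of a knockdown line with shNT. NR4A2 in shNR4A3 cells changed by -0.29 without LPS (adjusted p = 0.494) and by -0.36 with LPS (adjusted p = 0.198, 0.00132 with the replicate number as a block in the fit and 0.0109 with no filter on low counts). Both knockdowns were partial at the RNA level in LPS-treated cells.

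All 12 monocyte markers fixed for the check were detected in all 18 libraries, led by SPI1 with a median of 711 TPM and LYZ with 515 TPM. Of 13 markers of other cell types, the T cell gene CD3E had 22 counts over all libraries, the B cell gene MS4A1 3 counts and the haemoglobin gene HBB 5 counts. PECAM1, an adhesion molecule of endothelium that monocytes also carry, had a median of 193 TPM and differed between the lines, as given with ADORA2B.

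ADORA2A, which encodes the high-affinity adenosine receptor of this pair, appeared with LPS. Without LPS it had 1, 0 and 3 counts in shNT, 1, 5 and 3 in shNR4A2 and 1, 1 and 5 in shNR4A3. With LPS it had 48, 38 and 50 counts in shNT, 87, 53 and 107 in shNR4A2, and 153, 55 and 125 in shNR4A3. Every LPS library lay far above every control library. Scaled by total counts, the group sum with LPS was 31.6 times that of control cells in shNT (95% exact interval 12.1 to 118), 31.3 times in shNR4A2 (16.2 to 69.2) and 44.2 times in shNR4A3 (21.2 to 111). These intervals cover counting error only. The fitted log2 changes were 5.03, 5.12 and 5.58, with adjusted p = 5.29e-06, 8.61e-06 and 2.10e-05. ADORA2A passed the filter on low counts only through its LPS libraries, so that it had to differ there. The sources used here do not give the counting settings, and 60.0% of its exon bases (chromosome 22, 24417879 to 24442360, GRCh38) are shared with SPECC1L-ADORA2A and the antisense gene ADORA2A-AS1. ADORA2A-AS1 moved in the same direction, from 8 counts in shNT control cells to 160 with LPS, from 9 to 332 in shNR4A2 and from 4 to 333 in shNR4A3. In shared bases, reads of the sense and antisense genes cannot be told apart without the strand setting. Of the ADORA2A exon bases, 56.8% are shared on the same strand. SPECC1L-ADORA2A had at most 4 counts in any group.

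ADORA2B encodes the low-affinity receptor and lies at chromosome 17, 15944917 to 15975746. In shNT cells it had 4.41, 3.10 and 2.68 TPM without LPS and 2.60, 1.84 and 1.58 TPM with LPS. In shNR4A2 cells it had 7.12, 7.17 and 7.48 TPM without LPS and 6.81, 6.03 and 4.15 TPM with LPS. In shNR4A3 cells it had 7.19, 7.01 and 6.32 TPM without LPS and 4.06, 3.58 and 3.68 TPM with LPS. In either state, every shNR4A2 and shNR4A3 library lay above every shNT library of that state. The counts behind these levels are modest, 25 to 118 per library.
With LPS, ADORA2B fell by 0.63 in shNR4A3 (SE 0.20, adjusted p = 0.0345), and the log2 changes of -0.55 in shNT (adjusted p = 0.192) and -0.09 in shNR4A2 (adjusted p = 0.815) did not pass. The shNR4A3 call was lost with DESeq2 (adjusted p = 0.1002), with no filter on low counts (0.0722), and without shNR4A3 control replicate 1 (0.108), 2 (0.0668) or 3 (0.0594) or shNR4A3 LPS replicate 2 (0.0865) or 3 (0.107).

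**Figure D1:**
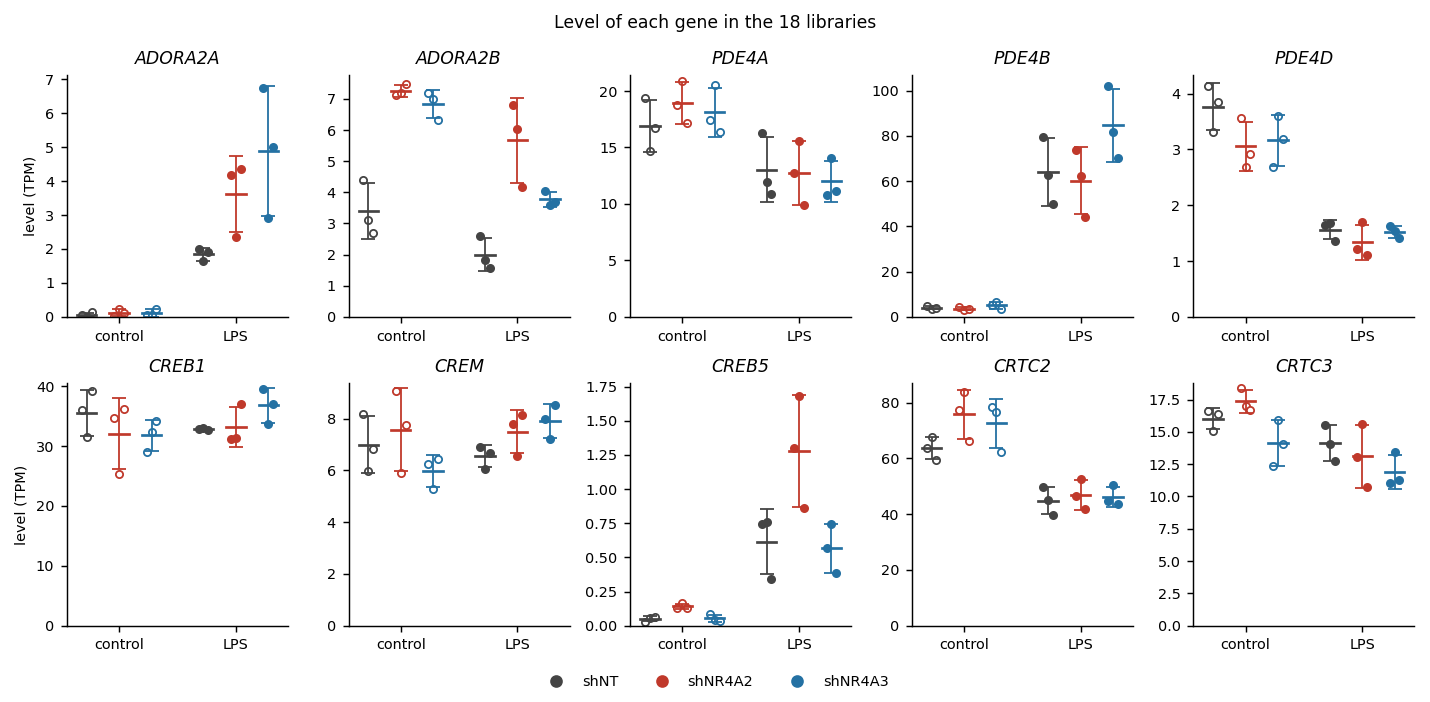
Level of each of the 10 genes in TPM (y axis, from 0) in control cells (open points) and LPS-treated cells (filled points) of the 3 lines, each point 1 library, with the mean (bar) and SD. ADORA2A, PDE4B and CREB5 stand near 0 or low in all control groups and rise in every LPS library, PDE4D is lower in every LPS library, and ADORA2B is higher in both knockdown lines than in shNT within each state.

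PDE4B had the highest mean level of the 10 genes with LPS in each line. It had 4.78, 3.66 and 3.94 TPM in shNT control cells and 79.6, 62.6 and 49.7 TPM with LPS. In shNR4A2 the levels were 4.34, 3.26 and 3.29 TPM without and 73.8, 62.3 and 44.4 TPM with LPS. In shNR4A3 they were 5.12, 6.60 and 3.52 TPM without and 102, 81.8 and 70.3 TPM with LPS. The lowest LPS library was several times above the highest control library in each line. PDE4B rose by 4.17 on the log2 scale in shNT (SE 0.17, adjusted p = 2.35e-10), 4.31 in shNR4A2 (SE 0.21, adjusted p = 2.05e-08) and 4.30 in shNR4A3 (SE 0.22, adjusted p = 1.07e-07).

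PDE4D moved the opposite way. It had 4.13, 3.31 and 3.85 TPM in shNT control cells and 1.64, 1.68 and 1.36 TPM with LPS. It had 3.55, 2.69 and 2.91 TPM without and 1.22, 1.69 and 1.10 TPM with LPS in shNR4A2, and 2.69, 3.60 and 3.19 against 1.62, 1.55 and 1.41 TPM in shNR4A3. No LPS library reached the lowest control library. PDE4D fell by 1.05 in shNT (SE 0.13, adjusted p = 5.04e-05), 0.93 in shNR4A2 (SE 0.19, adjusted p = 0.00366) and 0.82 in shNR4A3 (SE 0.15, adjusted p = 0.00164).
PDE4A, the most abundant PDE4 transcript of unstimulated cells, had 19.3, 14.7 and 16.7 TPM in shNT control cells and 16.3, 11.96 and 10.9 TPM with LPS, and these groups overlapped. Its log2 change was -0.16 in shNT (adjusted p = 0.490) and -0.31 in shNR4A2 (adjusted p = 0.200, and 0.0425 once replicate numbers entered the fit as a block). PDE4A fell by 0.37 in shNR4A3 (adjusted p = 0.0347). That call was lost with DESeq2 (adjusted p = 0.0552), in a fit of all 18 libraries (0.0884), and without shNR4A3 control replicate 1 (0.0763) or 2 (0.110) or shNR4A3 LPS replicate 1 (0.122) or 3 (0.139).

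The makeup of the PDE4 family at the RNA level changed with these shifts. In shNT control cells PDE4A held 67.7% ± 0.399 (SD, n = 3) of the summed PDE4 TPM, PDE4B 16.5% ± 0.466 and PDE4D 15.1% ± 0.543. With LPS, PDE4B held 81.0% ± 0.937, PDE4A 16.6% ± 0.956 and PDE4D 2.02% ± 0.303. The summed level was 25.0 TPM without and 78.9 TPM with LPS. In shNR4A2 the share of PDE4B was 14.1% without and 80.6% with LPS, and in shNR4A3 18.8% and 85.8%. PDE4C held at most 1.73% in any library.
Among the 4 adenosine receptor genes, ADORA2B held 45.2% ± 8.76 of the summed TPM in shNT control cells, ADORA3 32.7% ± 9.27, ADORA1 21.3% ± 5.08 and ADORA2A 0.770% ± 0.933. With LPS, ADORA2A held 38.7% ± 6.49 and ADORA2B 40.9% ± 2.98, while ADORA3 held 2.44% ± 1.68. The low shares rest on 4 counts of ADORA2A in shNT control cells and 6 counts of ADORA3 in shNT with LPS. In shNT both genes passed the filter on low counts only through the state where they were high. The receptor sum was 7.49 TPM without and 4.86 TPM with LPS in shNT, 12.7 and 10.8 TPM in shNR4A2, and 12.9 and 9.74 TPM in shNR4A3. ADORA2A held 34.0% of the sum in LPS-treated shNR4A2 cells and 48.8% in LPS-treated shNR4A3 cells. Of its exon bases, 60.0% are shared with other genes, and the counting settings are not given. The ADORA2A shares and the receptor sums depend on those settings. In shNT the log2 ratio of mean TPM with LPS also had a median of -0.23 over all genes tested. The lower receptor sums with LPS are therefore not read as a result.

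**Figure D2:**
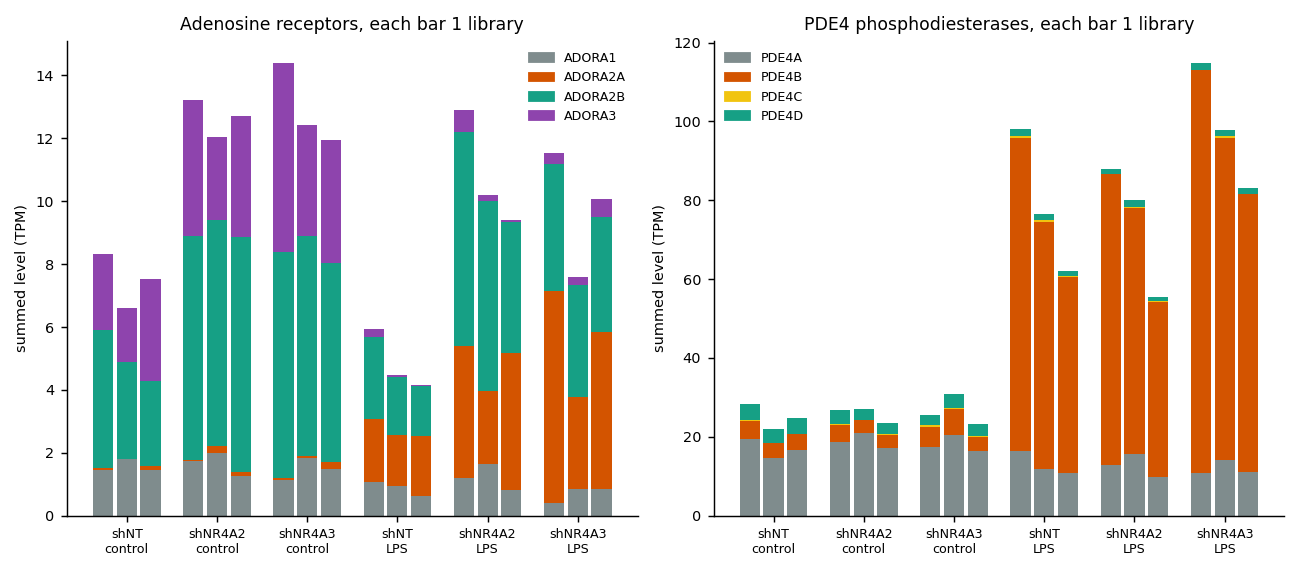
Summed level in TPM (y axes, from 0) of the 4 adenosine receptor genes (left) and the 4 PDE4 genes (right), each bar 1 library, stacked by gene, with the 6 groups along the x axis. With LPS the ADORA3 part is smaller and the ADORA2A part larger, each resting on few counts in its low state. PDE4B makes up most of the PDE4 sum in all 9 LPS libraries.

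CREB1, the factor that gives the family its name, was the most abundant of the 3 CREB genes here, with 25.3 to 39.6 TPM over the 18 libraries. In shNT it had 36.0, 31.4 and 39.2 TPM without and 32.8, 33.0 and 32.6 TPM with LPS. These groups overlapped, with a log2 change of 0.11 (adjusted p = 0.399). The sign depends on the scaling, since mean TPM of CREB1 in shNT went from 35.5 to 32.8. With LPS, the log2 ratio of mean TPM had a median over all genes tested of -0.23 in shNT, -0.28 in shNR4A2 and -0.24 in shNR4A3, where the TMM-normalized change had a median of -0.01, -0.02 and -0.01. The sign also turned for CREM in shNT and shNR4A2 and for CRTC3 in shNT, none of them called. CREB1 rose by 0.44 with LPS in shNR4A3 (SE 0.11, adjusted p = 0.00992), from 29.04, 32.3 and 34.1 to 39.6, 33.7 and 37.1 TPM, and these groups also overlapped. In shNR4A2 the log2 change was 0.32 (adjusted p = 0.156, and 0.0234 with the replicate block).
CREM, which encodes activators as well as the inducible repressor ICER from an internal promoter, had 5.28 to 9.07 TPM over the libraries. The counts are per gene and do not separate these transcripts. CREM rose by 0.63 with LPS in shNR4A3 (SE 0.15, adjusted p = 0.0104), from 6.26, 5.28 and 6.43 to 7.98, 7.23 and 8.55 TPM, with no overlap. The log2 changes of 0.12 in shNT (adjusted p = 0.591) and 0.26 in shNR4A2 (adjusted p = 0.397) did not pass.

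CREB5, a relative of CREB that binds the same kind of element, was near the limit of detection without LPS. It had 2, 3 and 4 counts in shNT control cells, 10, 10 and 9 in shNR4A2 and 5, 2 and 2 in shNR4A3. The shNR4A2 control libraries lay above those of the other lines, a difference that was not tested because CREB5 did not pass the filter on low counts in that comparison. With LPS it had 50, 49 and 25 counts in shNT, 75, 106 and 59 in shNR4A2, and 36, 39 and 27 in shNR4A3. Each LPS group lay wholly above its control group. Scaled by total counts, the group sum was higher 12.8 times in shNT (95% exact interval 6.54 to 28.7), 9.43 times in shNR4A2 (6.40 to 14.4) and 10.5 times in shNR4A3 (5.33 to 23.7). The fitted log2 changes were 3.80, 3.43 and 3.56, with adjusted p = 3.50e-05, 9.03e-06 and 0.000163. Like ADORA2A, CREB5 passed the filter only through its LPS libraries, although 1 shNR4A2 control library also reached the minimum.

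CRTC2, a coactivator that enters the nucleus when cAMP rises, was the most abundant of the 10 genes without LPS. It had 63.8, 67.6 and 59.6 TPM in shNT control cells and 49.7, 45.1 and 39.7 TPM with LPS. In shNR4A2 it had 77.4, 83.7 and 66.1 TPM without and 46.4, 52.6 and 41.7 TPM with LPS, and in shNR4A3 78.6, 76.7 and 62.2 against 44.7, 50.3 and 43.5 TPM. The groups did not overlap in any line. The TMM-normalized change was smaller than the difference in TPM, which share 1 fixed sum per library. CRTC2 fell by 0.43 in shNR4A2 (SE 0.13, adjusted p = 0.0402) and by 0.43 in shNR4A3 (SE 0.11, adjusted p = 0.0130), and its log2 change was -0.29 in shNT (SE 0.11, adjusted p = 0.0626).
The shNR4A2 call was lost with the size factors of DESeq2 in edgeR (adjusted p = 0.0522), without shNR4A2 control replicate 1 (0.112) or 2 (0.104), and without shNR4A2 LPS replicate 1 (0.1002), 2 (0.0580) or 3 (0.168). The shNR4A3 call was lost without shNR4A3 control replicate 1 (0.0552) or LPS replicate 3 (0.0660). In shNT the change was called without shNT control replicate 3 (0.0334) or shNT LPS replicate 1 (0.0378).
CRTC3, its paralog, had 10.7 to 18.4 TPM over the libraries and was not called with LPS in any line. Its log2 changes were 0.04, -0.14 and -0.02, with adjusted p = 0.827, 0.510 and 0.915.

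In all, 4 of the 10 genes were called with LPS in shNT, 3 higher and 1 lower, where 24.9% of all 15711 genes tested were called, 11.6% higher and 13.3% lower. All 4 changed at least 2-fold, as did 7.56% of all genes tested. In shNR4A2 there were 5 called, 3 higher and 2 lower, against 19.3% of all genes, 9.23% higher and 10.1% lower, and 3 of them changed at least 2-fold, against 8.76%. In shNR4A3 there were 9 called, 5 higher and 4 lower, against 28.1% of all genes, 13.1% higher and 15% lower, and 3 changed at least 2-fold, against 10.3%. The median log2 change of the 10 genes was 0.07, 0.08 and 0.21 in the 3 lines, beside -0.01, -0.02 and -0.01 over all genes tested. The counts include ADORA2A and CREB5, which passed the filter as described. With 1 library left out, 4 to 5 of the 10 genes were called in shNT, 4 to 5 in shNR4A2 and 6 to 8 in shNR4A3. Over all genes, these fits called 3033 to 3461, 2113 to 3375 and 3136 to 4863 in the same order.

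**Figure D3:**
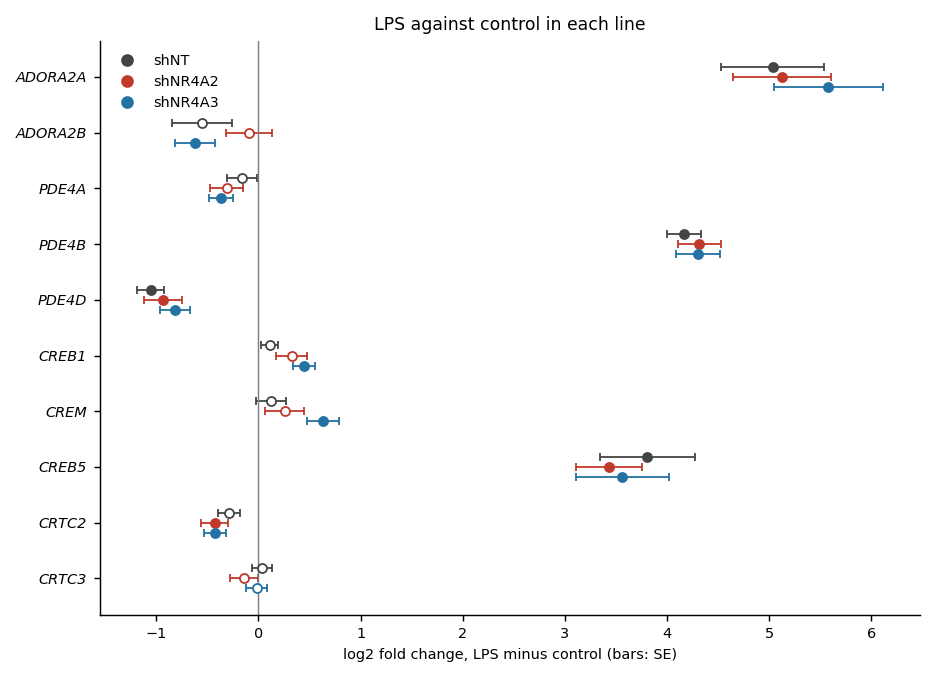
Log2 fold change of LPS over control (x axis, with SE) for each gene (y axis) in shNT, shNR4A2 and shNR4A3, with filled points for an adjusted p under 0.05 in edgeR. ADORA2A, PDE4B and CREB5 lie beyond 3 in all 3 lines, PDE4D lies near -1, and the others lie within 0.63 of 0.

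The LPS responses of the lines were also compared with each other, in an interaction of line and LPS over 12 libraries. With edgeR, 0 of the 10 genes was called for shNR4A2 against shNT and 0 for shNR4A3 against shNT, and 0 of all genes tested were called in either (0%). At an unadjusted p under 0.05 there were 0 and 2 of the 10 genes, and 365 (2.19%) and 824 (5.02%) of all genes. The 2 genes were CREB1, whose LPS response was higher by 0.33 in shNR4A3 (SE 0.14, adjusted p = 0.942), and CREM, by 0.50 (SE 0.21, adjusted p = 0.942). DESeq2 called 2 and 10 genes in all and the replicate block 8 and 22, none of them among the 10. The responses differed by 0.15 for PDE4B (SE 0.28) and 0.47 for ADORA2B (SE 0.36) in shNR4A2, and by 0.13 (SE 0.29) and -0.07 (SE 0.34) in shNR4A3. A response called in 1 line and not in another was thus not shown to differ between the lines.

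The next comparison set each knockdown line against shNT within each state. Both knockdown lines are compared with the same shNT libraries, so their differences from shNT are not independent. ADORA2B was higher than in shNT in all 4 comparisons. It rose by 1.09 in shNR4A2 without LPS (SE 0.22, adjusted p = 0.0129) and by 1.55 with LPS (SE 0.28, adjusted p = 0.0124). In shNR4A3 it rose by 1.05 without LPS (SE 0.23, adjusted p = 0.0132) and by 0.98 with LPS (SE 0.25, adjusted p = 0.0493). Without LPS it was the only gene called of the 8 tested in either line, where 6.45% of all genes were called for shNR4A2 and 7.23% for shNR4A3.
The ADORA2B calls rest on few libraries. For shNR4A2, the call was lost without shNT control replicate 3 (log2 change 0.91, adjusted p = 0.0576) in control cells, and without shNT LPS replicate 2 (1.47, adjusted p = 0.0594) or 3 (1.42, adjusted p = 0.0566) in LPS-treated cells. For shNR4A3 it was lost without shNT control replicate 2 (1.01, adjusted p = 0.0581) or 3 (0.87, adjusted p = 0.0561). With LPS it was lost with DESeq2 (0.98, adjusted p = 0.0559), without shNT LPS replicate 2 (0.89, adjusted p = 0.177) or 3 (0.84, adjusted p = 0.153), and without shNR4A3 LPS replicate 1 (0.89, adjusted p = 0.151) or 3 (0.99, adjusted p = 0.129).

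Monocyte markers moved with the same lines. Of 12, 5 were called higher in shNR4A2 without LPS, 4 with LPS, 6 in shNR4A3 without LPS and 5 with LPS, and none lower. Over all genes tested, 3.63%, 4.31%, 3.91% and 3.99% were called higher in the same order, and 2.82%, 2.65%, 3.32% and 2.46% lower. LYZ, the lysozyme gene and the most abundant of those called in every comparison, rose by 1.68, 1.76, 2.25 and 2.29 in that order, MPEG1 by 1.80, 1.89, 1.89 and 2.26, and CSF1R, the receptor of macrophage colony-stimulating factor, by 0.77, 0.87, 1.02 and 1.10. The 12 markers summed to 1319, 1139 and 1144 TPM in shNT control cells, 2072, 1729 and 1892 TPM in shNR4A2 and 2522, 1972 and 2128 TPM in shNR4A3. With LPS the sums were 1416, 1183 and 1187, then 2135, 1769 and 1843, then 2558, 2019 and 2264 TPM. Of the 13 markers of other cell types, 4 were tested, and PECAM1 was called higher in shNR4A2, by 0.63 without LPS (adjusted p = 0.00936) and by 0.70 with LPS (adjusted p = 0.0127), and not in shNR4A3. Without LPS it had 206, 155 and 161 TPM in shNT, 289, 250 and 266 TPM in shNR4A2, and 204, 205 and 208 TPM in shNR4A3. The part of the markers in the difference of ADORA2B was not tested. In such bulk libraries, a higher level in every cell and a larger share of cells with the gene cannot be told apart.

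ADORA2A was higher in the knockdown lines with LPS. Its levels were 1.99, 1.63 and 1.92 TPM in shNT, 4.19, 2.34 and 4.36 TPM in shNR4A2 and 6.74, 2.92 and 4.99 TPM in shNR4A3. All 6 knockdown libraries lay above the shNT libraries, with replicate 2 the lowest of its line in each. It rose by 1.48 in shNR4A3 (SE 0.31, adjusted p = 0.0223), and with ADORA2B this made 2 of 10 genes called there, against 6.45% of all genes. In shNR4A2 the log2 change was 1.04 (SE 0.29, adjusted p = 0.0662), which passed with the replicate block (1.01, adjusted p = 0.000167), with DESeq2 (adjusted p = 0.0244), with no filter on low counts (adjusted p = 0.00197) and without shNR4A2 LPS replicate 2 (1.30, adjusted p = 0.00690). The shNR4A3 call was lost without any 1 of 5 libraries, shNT LPS replicate 1 (1.54, adjusted p = 0.0635), 2 (1.37, adjusted p = 0.0934) or 3 (1.53, adjusted p = 0.0655) and shNR4A3 LPS replicate 1 (1.14, adjusted p = 0.0694) or 3 (1.47, adjusted p = 0.0675). ADORA2A-AS1 had 160, 332 and 333 counts in the LPS groups of shNT, shNR4A2 and shNR4A3, with the same limit on telling the genes apart.

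CREB5 with LPS had 0.746, 0.756 and 0.344 TPM in shNT, 1.30, 1.68 and 0.864 TPM in shNR4A2 and 0.570, 0.744 and 0.387 TPM in shNR4A3. Only the shNR4A2 libraries lay above those of the other lines. The log2 change of shNR4A2 from shNT was 1.11 (SE 0.32, adjusted p = 0.0720). It passed with the replicate block (1.13, adjusted p = 4.70e-05), with DESeq2 (adjusted p = 0.0241), with no filter on low counts (adjusted p = 0.000851), in a fit of all 18 libraries (adjusted p = 0.0203), and without shNR4A2 LPS replicate 3 (1.32, adjusted p = 0.0398). In shNR4A3 the change was -0.07 (SE 0.34, adjusted p = 0.926). ADORA2B was the only 1 of 10 genes called in shNR4A2 with LPS, against 6.96% of all genes, and with the replicate block there were 3, against 28.1%.

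The PDE4 genes, CREB1, CREM and the CRTC genes were not called in any comparison of a knockdown line with shNT. Their log2 changes ran from -0.30, for PDE4D in shNR4A2 without LPS (SE 0.14, adjusted p = 0.259), to 0.47, for PDE4B in shNR4A3 with LPS (SE 0.18, adjusted p = 0.156). With the replicate block, 5 genes were called in shNR4A3 with LPS, against 21.8% of all genes. The added ones were PDE4B (0.47, adjusted p = 6.09e-05, also called with no filter on low counts, adjusted p = 0.000293), CREB1 (0.22, adjusted p = 0.0336) and CREM (0.33, adjusted p = 0.0382). In shNR4A2 without LPS the block added PDE4D (-0.30, adjusted p = 0.0342) and CRTC2 (0.25, adjusted p = 0.0145), making 3 where 23.6% of all genes were called.

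**Figure D4:**
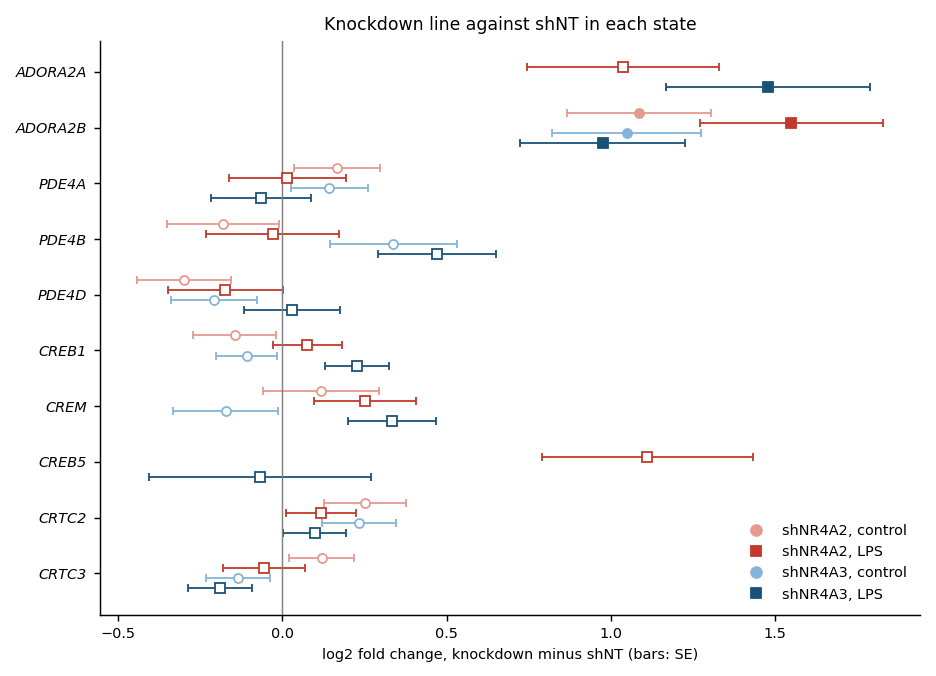
Log2 fold change of each knockdown line over shNT (x axis, with SE) for each gene (y axis), without LPS (circles) and with LPS (squares), filled where the adjusted p in edgeR was under 0.05. ADORA2B is the only gene called in all 4 comparisons, and ADORA2A and CREB5 could be tested only with LPS.

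Between the 2 knockdown lines, 0 of 8 genes tested was called without LPS and 0 of 10 with LPS, where 3.08% and 2.33% of all genes were called by edgeR. At an unadjusted p under 0.05 there were 2 and 3 genes, against 14.5% and 17.8% of all genes. CREB5 was higher by 1.18 in shNR4A2 than in shNR4A3 with LPS (SE 0.30, adjusted p = 0.0868), which passed with DESeq2 (adjusted p = 0.0217), no filter on low counts (adjusted p = 0.000840) and the replicate block (1.17, adjusted p = 0.000898). With the block, PDE4B was lower in shNR4A2 than in shNR4A3 with LPS (-0.51, adjusted p = 4.87e-05, and 0.00141 with no filter and no block) and without LPS (-0.50, adjusted p = 0.0464), and ADORA2B was higher with LPS (0.56, adjusted p = 0.0471). The block called 11.6% of all genes without and 23.6% with LPS.

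The wider pathway was described with 7 lists of genes with textbook roles, which include the 10 genes where they belong. Of 19 cAMP-coupled receptors, 16 were tested with LPS in shNT, and 7 rose and 3 fell, where 11.6% of all genes rose and 13.3% fell. Besides ADORA2A, the prostaglandin E2 receptors PTGER2 (log2 change 3.98, adjusted p = 3.89e-06) and PTGER4 (2.97, adjusted p = 1.03e-08) rose. PTGER4 reached 628 TPM from 92.6 TPM. CALCRL, the calcitonin receptor-like receptor, rose by 1.95 (adjusted p = 0.00221). The adenosine A3 receptor gene ADORA3, coupled to the inhibitory G protein, fell by 3.97 (adjusted p = 5.26e-05), and the proton-sensing GPR65 fell by 2.43 (adjusted p = 0.000176). The histamine receptor gene HRH2 fell by 1.65. PTGER2 and CALCRL, like ADORA2A, passed the filter on low counts only through their LPS libraries, and ADORA3 and GPR65 only through their control libraries, so that these 5 of the called receptors had to differ and the count is not read as a result about the list. Of the 16 receptors tested, 6 rose and 3 fell in shNR4A2, where 9.23% of all genes rose and 10.1% fell, and 7 rose and 4 fell in shNR4A3, where 13.1% rose and 15% fell.
The counts of the next lists, also for LPS in shNT, stand beside the same 11.6% of all genes that rose and 13.3% that fell. Of 15 G proteins and adenylyl cyclases, 11 were tested and 2 fell, ADCY7 by 0.45 and GNAL by 0.73. Of 16 cAMP phosphodiesterases, 9 were tested, and 2 rose and 3 fell. Beside PDE4B and PDE4D these were PDE8A (0.40), PDE7A (-0.31) and PDE7B (-0.56). Of 17 cAMP effectors, 13 were tested and 3 fell, the anchoring proteins AKAP13 by 1.07 (adjusted p = 0.000360) and AKAP1 by 0.52, and the protein kinase A catalytic subunit PRKACB by 0.32. Of 19 CREB family members and coactivators, 18 were tested, and CREB5 and CREB3 (0.57) rose and CREB3L2 fell by 0.50. Of 11 genes of adenosine handling, 8 were tested and ADA, adenosine deaminase, rose by 0.58. HRH2, PDE8A, PDE7A, PDE7B, ADCY7, GNAL, AKAP1, PRKACB, CREB3, CREB3L2 and ADA were named after their values were seen.

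Of 22 textbook CREB targets, 16 were tested with LPS in shNT, and 13 rose and 1 fell, where 11.6% of all genes rose and 13.3% fell. The median log2 change was 2.63, beside -0.01 over all genes tested. The member that fell was PDE4D. The largest rises were those of NR4A3 (5.97), the antiproliferative gene BTG2 (5.57, from 35.4 to 1447 TPM), the small GTPase gene GEM (4.47), NR4A2 (4.29), the MAP kinase phosphatase gene DUSP1 (3.23) and the early growth response factor EGR1 (3.15), the largest of their adjusted p-values being 1.78e-07. Many of these genes are also known as targets of other LPS-activated pathways, and the count does not separate them. In shNR4A2 12 of 17 rose and 1 fell, against 9.23% and 10.1% of all genes, and in shNR4A3 14 of 16 rose and 1 fell, against 13.1% and 15%. Of those that rose, the growth factor gene AREG in shNR4A2, named after its value was seen, and NR4A3 in shNR4A3, the target of the hairpin there, passed the filter on low counts only through their LPS libraries and had to differ. Between the knockdown lines and shNT, BTG2 was higher in all 4 comparisons, by 0.93 and 0.69 in shNR4A2 without and with LPS and by 0.65 and 0.67 in shNR4A3. In the same order, 2 of 16, 2 of 17, 2 of 16 and 3 of 17 targets tested were called higher, against 3.63%, 4.31%, 3.91% and 3.99% of all genes, and 1, 1, 2 and 1 were called lower, against 2.82%, 2.65%, 3.32% and 2.46%. The list holds the targets of the hairpins, and the lower calls were NR4A2 in both shNR4A2 comparisons, NR4A3 in both shNR4A3 comparisons and EGR1 in shNR4A3 without LPS (-0.72, adjusted p = 0.0246).

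The other lists were counted between the knockdown lines and shNT beside the same shares of all genes. Of the receptors, 2 of 13 tested were higher in shNR4A2 without LPS and 2 of 14 with LPS, and 2 of 13 and 4 of 14 in shNR4A3, with none lower, where 3.63% to 4.31% of all genes were higher. Besides ADORA2A, ADORA2B, CALCRL and PTGER2 these were GPR65 (0.94, shNR4A2 without LPS) and PTGER4 (0.53, shNR4A3 without LPS). CALCRL with LPS was higher by 3.05 in shNR4A2 (adjusted p = 0.00725) and by 2.90 in shNR4A3 (adjusted p = 0.0216), with 4.39 and 3.91 TPM against 0.558 TPM. PTGER2 with LPS was higher by 1.19 in shNR4A3 (adjusted p = 0.00633). PDE2A, a cGMP-stimulated phosphodiesterase, was higher by 1.55 in shNR4A2 without LPS (adjusted p = 0.0479), by 2.25 with LPS (adjusted p = 0.0241) and by 2.64 in shNR4A3 with LPS (adjusted p = 0.00448), all at mean levels under 1 TPM. It passed the filter only through the knockdown libraries, with 1 shNT control library and 0 shNT LPS libraries at the minimum, and so had to differ there. PKIB, an inhibitor of protein kinase A, was higher in all 4 comparisons, by 1.06 and 0.90 in shNR4A2 without and with LPS (adjusted p = 0.000400 and 0.00118) and by 0.74 and 0.42 in shNR4A3 (adjusted p = 0.00211 and 0.0230). CREB3L1, a membrane-bound CREB relative, was higher in shNR4A2 by 1.57 without LPS (adjusted p = 0.000825) and 1.32 with LPS (adjusted p = 0.0239), and it was also higher in shNR4A2 than in shNR4A3, by 2.12 and 1.89. The next counts run in the order shNR4A2 without and with LPS, then shNR4A3. Of the phosphodiesterases tested, 1 of 11, 1 of 12, 0 of 9 and 2 of 12 were higher and none lower. Of the effectors, 2 of 14, 1 of 14, 3 of 13 and 2 of 14 were higher. In shNR4A2 with LPS 1 was lower. Of the CREB family and coactivators, 1 of 17, 1 of 18, 0 of 16 and 0 of 17 were higher. In shNR4A3 with LPS 1 was lower. Of all genes, 3.63% to 4.31% were higher and 2.46% to 3.32% lower. The other called genes of these lists were AKAP13, PRKAR2B and PDE3B, which were higher, and AKAP1 and ATF2, which were lower. All changed by less than 2-fold and in 1 or 2 of the 4 comparisons. Of the 11 G proteins and cyclases tested, ADCY4 was higher by 0.66 in shNR4A2 without LPS, and ADCY1 was lower in shNR4A3 without LPS (-0.83) and with LPS (-0.70). Genes named in these counts beyond the naming rule were chosen after their values were seen.
Of the 8 genes of adenosine handling tested, 2 and 3 were called higher in shNR4A2 without and with LPS and 2 and 1 in shNR4A3, against 3.63% to 4.31% of all genes, and none lower. ADA2, a secreted adenosine deaminase of myeloid cells, was higher by 0.96 and 1.03 in shNR4A2 without and with LPS (adjusted p = 0.00271 and 0.00429) and by 1.31 and 1.41 in shNR4A3 (adjusted p = 0.000429 and 0.000849). DPP4, the surface peptidase that binds adenosine deaminase, was higher by 1.46 and 1.65 in shNR4A2 (adjusted p = 0.00512 and 0.00419) and by 1.21 in shNR4A3 without LPS (adjusted p = 0.0183), with 1.11 with LPS (adjusted p = 0.0561). The monocyte markers given above moved with these genes as well, and their part was not tested.

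Group means spanned more than 1 log2 unit of CPM in 5 of the 10 genes, ADORA2A (5.30), PDE4B (4.80), CREB5 (4.20), ADORA2B (1.60) and PDE4D (1.23). The other 5 spanned 0.27 to 0.62. For each of the 5 genes, the nearest profiles over the 18 libraries were sought among 16935 genes by the root mean square difference of centred log2 CPM. Libraries of 6 groups share these profiles, so likeness is a description. Nearest to PDE4B were NFKBIA, the inhibitor of NF-kappaB (0.30), PNRC1 (0.33) and LRRC32 (0.34). Among the nearest to ADORA2A were FRMD7 (0.47) and SLC12A7 (0.53), and nearest to CREB5 were GIMAP5 (0.41), PHLDA1 (0.43) and PLK2 (0.43). Nearest to ADORA2B were FGD2 (0.24), SORL1 (0.26) and SLC37A2 (0.27). Nearest to PDE4D were the zinc finger genes ZNF623 (0.17), ZNF592 (0.17) and ZBTB24 (0.17).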

How the data were processed

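Libraries were made from polyadenylated RNA and sequenced from both ends. The authors deposited raw whole-number counts of reads on Ensembl genes, with GRCh38 positions and merged exon lengths. The submitters' processing notes name Trimmomatic 0.36, STAR 2.5.2b and featureCounts of Subread 1.5.2. The annotation release and strand setting are not given in the sources used here. Symbols were taken from GENCODE 29 (56898 genes), and 54749 genes lay at the same position there. TPM was computed from counts and deposited lengths. Each comparison was fitted on its own libraries in edgeR 4.0.16 (R 4.3.3) with filterByExpr, TMM and the quasi-likelihood F test, with Benjamini-Hochberg adjustment over all genes tested. The SE is the log2 fold change divided by the square root of F. Other settings tried were DESeq2 1.42.0, edgeR with RLE size factors, no filter, a replicate block, a single fit of all 18 libraries, a 2-fold limit, each library left out, and CPM for the order of levels. Replicate numbers were taken to pair the libraries where residuals of libraries with the same number correlated above 0.1 in all 3 replicates. This limit was met in 7 of 9 comparisons. The exceptions were LPS in shNT (lowest r 0.00751) and shNR4A3 against shNT without LPS (0.0767), where r was also positive in all 3 replicates. On simulated counts with 200 changed genes, edgeR recovered 86% of 2-fold and 93% of 4-fold changes for LPS in shNT (15711 genes). False calls were 5.29% there. The recovery of 2-fold changes was 84% for LPS in shNR4A2, 77% for LPS in shNR4A3 and 71% to 81% between lines. For the interactions it was 60% (shNR4A2, 16674 genes) and 56% (shNR4A3, 16428 genes). Genes outside the 10 were named when called at least 2-fold with groups that did not overlap, at most 6 per list and comparison, for LPS in shNT and the knockdown comparisons with shNT. The genes, lists and tests were chosen with earlier results of these data known. No 2 libraries were identical, and 3 libraries against 3 allow no exact permutation p under 0.1. Values of a few listed or nearest genes are not reported here.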

Additional observations from a re-analysis of the deposited data

How the results depend on the processing

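No called value changed sign under any alternative. Leaving out single libraries, the number of the 10 genes called ran from 4 to 5 for LPS in shNT, 4 to 5 in shNR4A2 and 6 to 8 in shNR4A3, from 0 to 1 for shNR4A2 against shNT without LPS, 0 to 2 with LPS, 0 to 1 for shNR4A3 against shNT without LPS and 0 to 3 with LPS. It was 0 throughout for shNR4A2 against shNR4A3 and for the interactions. The 2-fold limit gave 3 genes for LPS in shNR4A2 (8.76% of all genes), 3 in shNR4A3 (10.3%) and 1 for shNR4A3 against shNT with LPS (2.25%). For shNR4A2 against shNT with LPS, DESeq2, no filter and the replicate block gave 3 genes each (9.5%, 4.57% and 28.1% of all genes) and all 18 libraries in 1 fit 2 (9.99%). For shNR4A3 against shNT with LPS, DESeq2 gave 1 (8.58%) and the block 5 (21.8%). No filter added PDE4B to the calls there (4.57% of all genes). For shNR4A2 against shNR4A3 with LPS, DESeq2 gave 1 (4.5%), no filter 2 (2.8%), the block 3 (23.6%) and all 18 libraries 1 (6.09%). Without LPS, the block gave 3 genes for shNR4A2 against shNT and 1 for shNR4A2 against shNR4A3. The cause of these moves was not tested. Over all genes, the block raised the calls from 1019 to 3733 and from 1085 to 4385 for shNR4A2 against shNT without and with LPS, from 1005 to 3401 for shNR4A3 against shNT with LPS, from 480 to 1800 and from 362 to 3666 for shNR4A2 against shNR4A3 without and with LPS, and from 3050 to 4751 for LPS in shNR4A2. In the comparisons that missed the 0.1 limit on the correlation of same-number libraries, the block also raised the calls. They went from 3909 to 5029 for LPS in shNT, where CRTC2 was then called (-0.29, adjusted p = 0.0157). For shNR4A3 against shNT without LPS they went from 1108 to 2267. The block ended no call of the 10 genes. DESeq2 gave no adjusted p for NR4A3 in shNR4A3 without LPS. With DESeq2 the median log2 change of LPS in shNR4A3 was 0.10, over more genes of low counts, beside -0.01 in edgeR. Of neighbouring groups in the order of levels, 11 pairs did not overlap in TPM and 8 in CPM. ADORA2A and CREB5 rest on few counts without LPS, and differences between lines there were not tested. Over all genes, no filter gave 1611, 1843 and 1839 calls for shNR4A2 against shNT without and with LPS and shNR4A3 against shNT with LPS, 838 and 1102 for shNR4A2 against shNR4A3, and 29 and 138 for the interactions. All 18 libraries in 1 fit gave 1691 for shNR4A2 against shNT with LPS, 1032 for shNR4A2 against shNR4A3 with LPS and 4601 for LPS in shNR4A2, and DESeq2 gave 700 for shNR4A2 against shNR4A3 with LPS. With single libraries left out, calls over all genes ran from 3033 to 3461 for LPS in shNT, from 2113 to 3375 in shNR4A2, from 3136 to 4863 in shNR4A3, from 342 to 1477 for shNR4A2 against shNT with LPS, from 383 to 1693 for shNR4A3 against shNT with LPS and from 94 to 217 for shNR4A2 against shNR4A3 with LPS. Without LPS they ran from 517 to 1128 for shNR4A2 against shNT, from 649 to 975 for shNR4A3 against shNT and from 249 to 470 for shNR4A2 against shNR4A3, and for the interactions from 0 to 8 (shNR4A2) and 0 to 44 (shNR4A3). The lowest counts against shNT came without shNT LPS replicate 2 with LPS and shNT control replicate 3 without LPS, and those between the knockdown lines without shNR4A3 replicate 1 of either state. The highest with LPS against shNT, and for the interactions, came without LPS replicate 2 of the knockdown line.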
